A study of Mus musculus with 6 samples.

Results

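The 10 tubulin genes described here (*Tuba1a*, *Tuba1b*, *Tuba1c*, *Tuba4a* and *Tuba8* for α-tubulin, *Tubb2a*, *Tubb2b*, *Tubb4b*, *Tubb5* and *Tubb6* for β-tubulin) were taken by symbol from the 55401 genes of the deposited count matrix. The matrix comes from C2C12, a line of mouse myoblasts that form multinucleate myotubes once serum is lowered. RNA was taken 2 d after differentiation began, in medium with 2% horse serum. Each group, *Phf2* KO and control, has 3 libraries, here called KO 1 to KO 3 and control 1 to control 3 after their replicate numbers. Values written with ± are means and SDs with n = 3 libraries. The libraries of a group are wells of a single experiment, so p-values measure only the spread between these wells, which may be technical. *Phf2* KO cells were transfected with a pool of 4 Cas9 plasmids against *Phf2* that also carried ZsGreen, sorted once for green fluorescence and not cloned. Control cells carry the genotype label wild type and, by the study's methods, are mock cells transfected and sorted in the same way with a plasmid whose guide matches no mouse sequence. Each group is therefore a single sorted pool, and an effect of *Phf2* cannot be told apart from a difference between the pools or from an effect of DNA cutting itself, which the control cells lack.

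Microtubules are hollow polymers of α-tubulin and β-tubulin dimers, and mammals encode each subunit in several genes, the isotypes. The isotypes are nearly the same over most of their length and differ mainly in the acidic C-terminal tail, where modifying enzymes and microtubule-binding proteins act. When myoblasts become myotubes, the microtubule array is rebuilt from one that radiates from the centrosome into one that runs along the cell and is nucleated at the nuclear envelope. Free tubulin dimers also lower the stability of tubulin mRNA during translation, a feedback that involves the factor TTC5 and the first codons of the message.

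The 60 last coding bases, stop codon included, are shown for 4 β isotypes because this is where the encoded tails differ. They come from the GENCODE M21 transcripts (GRCm38), 5′ to 3′. Capitals mark bases that differ from *Tubb5*, or have no counterpart there, in an alignment of the whole coding sequences.
Tubb5: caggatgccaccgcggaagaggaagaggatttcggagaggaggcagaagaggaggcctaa
Tubb2a: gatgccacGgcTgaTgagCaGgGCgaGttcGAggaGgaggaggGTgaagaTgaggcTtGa
Tubb2b: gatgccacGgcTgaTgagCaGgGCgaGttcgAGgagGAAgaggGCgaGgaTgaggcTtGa
Tubb4b: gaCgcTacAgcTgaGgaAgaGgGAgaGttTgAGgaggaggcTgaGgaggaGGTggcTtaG

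Over these 60 bases *Tubb2a* differed from *Tubb5* at 16 bases, *Tubb2b* at 19 and *Tubb4b* at 20. Each run lies within a single exon on the minus strand. *Tubb5* ends at chr17:35834982-35835041, *Tubb2a* at chr13:34074468-34074527, *Tubb2b* at chr13:34127471-34127530 and *Tubb4b* at chr2:25222308-25222367. *Tubb6* (chromosome 18, 67390717 to 67402749) and the α isotypes are described by their values only.

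The likeness of the genes limits what a short read can tell. The whole coding sequences of *Tuba1a* and *Tuba1b* were 98.3% identical, those of *Tuba1b* and *Tuba1c* 97.94%, and those of *Tubb2a* and *Tubb2b* 96.49%. Of all stretches of 150 bases, the read length, in the main transcript, 54.7% for *Tuba1a*, 57.9% for *Tuba1b* and 46.7% for *Tuba1c* also stood, letter for letter, in a transcript of another gene, among them the other *Tuba1* genes. The share was 27.9% for *Tubb2a* and 20.1% for *Tubb2b*, with each other and with the pseudogene *Tubb2a-ps2*, and 16.8% for *Tubb4b*, with the pseudogene *Tubb4b-ps1*. *Tubb5*, *Tubb6*, *Tuba4a* and *Tuba8* had 0 shared stretches. By the study's methods the reads were paired. These shares count single stretches, so they do not give the share of read pairs that cannot be placed. How the authors' counting divided the shared reads is not stated, so the split within *Tuba1a*, *Tuba1b* and *Tuba1c*, and within *Tubb2a* and *Tubb2b*, is uncertain. *Tuba4a* (chromosome 1, 75214228 to 75219865) overlaps *Stk16* on the opposite strand over 1379 bases. *Stk16* had 15945 estimated counts in all, against 23795 for *Tuba4a*. *Gm49450*, with 111 estimated counts in all, overlaps *Tuba1a* over 3715 bases and *Tuba1b* over 2429 bases on the same strand. *Tuba1b* overlaps *Gm41396* on the opposite strand over 241 bases, a gene with 36 estimated counts in all. The library kit keeps the strand, but whether the counting used it is not stated, so reads of overlapping genes may not be told apart.

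The libraries held between 52526109 and 67502788 estimated counts. *Phf2*, the targeted gene, had 102.4, 95.5 and 104.6 CPM (estimated counts per 1e+06, after TMM scaling) in controls 1, 2 and 3 and 41.1, 37.6 and 38.6 CPM in KO 1, 2 and 3. Its log2 fold change (KO over control) was -1.37, with an SE of 0.055 and an edgeR QL adjusted p of 8.32e-09. Here edgeR QL stands for edgeR's quasi-likelihood F-test, adjusted by the Benjamini-Hochberg method over the 17310 genes tested. The SE was derived from this test, as the size of the log2 fold change divided by the square root of F. Of all 17310 genes tested, 3.22% were higher and 3.26% lower past an edgeR QL adjusted p of 0.05 (6.48% in all), and 19.4% had an unadjusted p under 0.05. Of 12 myotube markers, 9 were lower past this threshold in *Phf2* KO cells, and the summed level of the 12 ran from 8899 to 10481 CPM in control libraries and from 6961 to 7481 CPM in *Phf2* KO libraries. Of 8 markers of undifferentiated or reserve myoblasts, 0 passed by edgeR QL, and 3 had an unadjusted p under 0.05. Of these 3, *Id3* and *Id1* were higher and *Heyl* was lower in *Phf2* KO cells. *Id1* had 18.4 ± 2.32 CPM in control and 22.5 ± 0.224 CPM in *Phf2* KO cells, without overlap (edgeR QL adjusted p = 0.0883). *Id3* had 96.8 ± 13.8 CPM in control and 136.8 ± 10.4 CPM in *Phf2* KO cells and was called higher by exactTest, limma-voom and DESeq2, whereas *Heyl* had 14.8 ± 2.25 and 11.2 ± 1.44 CPM and was called lower by DESeq2 and with the replicate block. The sum of the 8 ran from 449.1 to 496.4 CPM in control and from 514.5 to 526.5 CPM in *Phf2* KO libraries, and *Id3* alone had the largest difference in it. The sum of 6 fibroblast or adipogenic markers ran from 57.5 to 73.3 CPM in control and from 57.5 to 70.5 CPM in *Phf2* KO libraries, with *Dpt* lower past the threshold. The 4 endothelial markers and the 4 immune markers stayed at or under 0.601 CPM and 1.88 CPM each, and *Adgre1* was at 0. In bulk RNA, fewer cells of a type and less RNA per cell cannot be told apart, and the part of the myotube marker shift in the tubulin values was not tested.

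Tubulin transcripts were abundant in both groups. The members together made up 0.469%, 0.485% and 0.462% of the TPM (transcripts per 1e+06, a level per transcript length) of all reference genes in controls 1, 2 and 3, and 0.442%, 0.458% and 0.44% in KO 1, 2 and 3. Every *Phf2* KO library was below every control library. *Tuba1a*, the main α isotype of developing neurons, was the most abundant member, with 1433 ± 58.6 TPM in control cells and 1374 ± 45.8 TPM in *Phf2* KO cells. *Tuba1b*, an isotype of most cell types, followed with 868 ± 33.7 TPM in control and 768 ± 22.3 TPM in *Phf2* KO cells, then *Tuba1c* with 360.4 ± 8.68 TPM and 347 ± 15.4 TPM, and *Tuba4a* with 56.4 ± 5.54 TPM and 48.6 ± 2.68 TPM. This order held in all 6 libraries, without overlap between neighbours.

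*Tuba8* (ENSMUSG00000030137, chromosome 6, 121210696 to 121226854), an isotype of adult skeletal muscle, heart and testis, had 0 estimated counts in all 6 libraries. A count of 0 allows up to 3 counts, which is between 0.0443 and 0.0571 CPM per library. This limit covers counting error only. *Tuba8* was therefore not detectable at this depth in either group, and it is the member of the 10 that did not pass the filter on low counts.

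**Figure D1:**
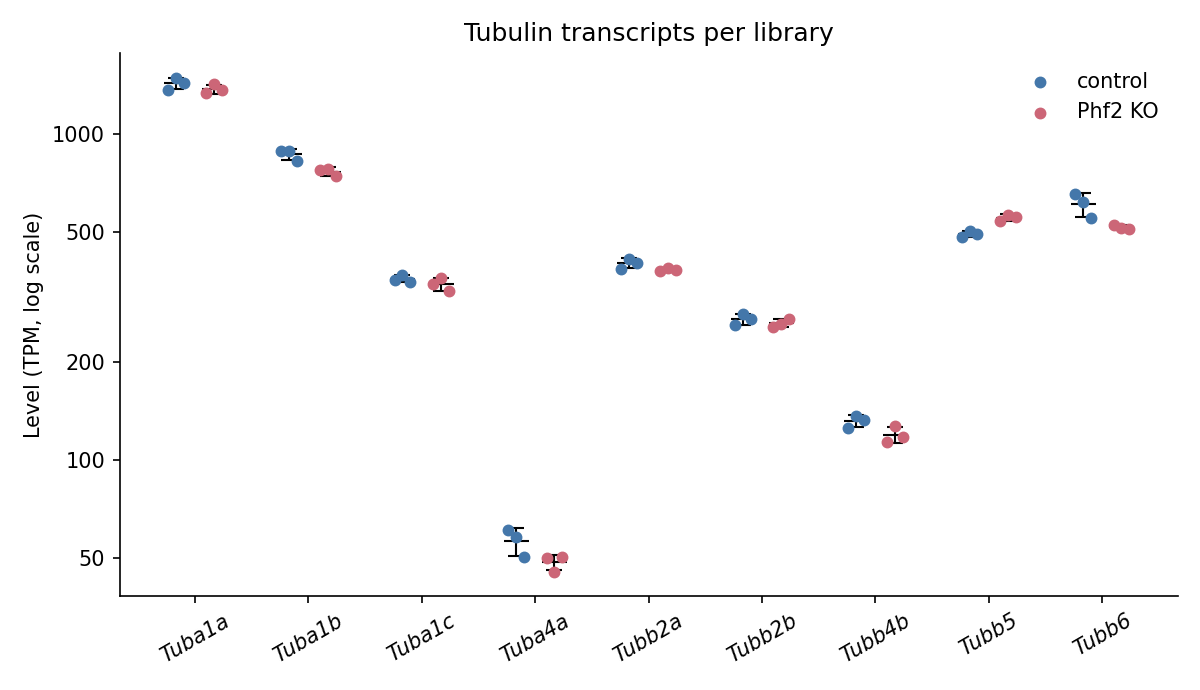
Level of each detected tubulin gene in TPM (log axis) in the 3 control libraries (blue) and the 3 *Phf2* KO libraries (red). Points are libraries and bars are mean ± SD. The control libraries of *Tubb6* sit above those of *Tubb5*, and in the *Phf2* KO libraries the order is turned.

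Among the β isotypes, *Tubb6* and *Tubb5* exchanged places in TPM. *Tubb6*, an isotype known from regenerating and dystrophic muscle fibers, had 657, 618 and 552 TPM in controls 1, 2 and 3, and 526, 517 and 512 TPM in KO 1, 2 and 3. *Tubb5*, the class I isotype that is made in most cell types, had 483, 505 and 493 TPM in controls 1, 2 and 3 and 541, 565 and 559 TPM in KO 1, 2 and 3. By TPM, *Tubb6* was thus the most abundant β isotype in 3 of 3 control libraries and *Tubb5* in 3 of 3 *Phf2* KO libraries. This order depends on the division by transcript length. In CPM, which is not divided by length, *Tubb5* was above *Tubb6* in all 6 libraries. The 3 other β isotypes kept 1 order in all 6 libraries, *Tubb2a* (from 379.5 to 414.9 TPM) above *Tubb2b* (from 256.8 to 281.2 TPM) above *Tubb4b* (from 113.5 to 136.4 TPM).

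The levels of *Phf2* KO and control cells were compared for all 17310 genes that passed the filter, on counts. Of the 9 tubulin genes tested, 8 had a log2 fold change below 0 and 1 above 0, with a median of -0.10 against -0.001 for all genes tested. With an edgeR QL adjusted p under 0.05, 1 was higher (*Tubb5*) and 2 were lower (*Tuba1b* and *Tubb6*), beside the 3.22%, 3.26% and 6.48% of all genes tested. The groups of 3 libraries did not overlap in CPM for 5 of the 9 (the same genes with *Tubb2a* and *Tubb2b*), where 25.1% of all genes tested did not overlap. The changes were small. The largest, that of *Tubb6*, was a fall of 15.6% in mean CPM.

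*Tubb6* (ENSMUSG00000001473) had 535, 505 and 445 CPM in controls 1, 2 and 3, and 432.5, 419 and 402 CPM in KO 1, 2 and 3. Control 3 was the lowest of the control libraries and lay close to the highest *Phf2* KO library. The fold change on the log2 scale was -0.24 (SE 0.060, edgeR QL adjusted p = 0.0321). The call was not stable when 1 library was left out, which leaves fewer samples, and the cause was not tested. It was kept without control 3 (adjusted p = 0.00138) and lost in the other 5 quasi-likelihood fits that left out 1 library, with 0.0901 without control 1, 0.134 without control 2, and 0.0635, 0.109 and 0.157 without KO 1, 2 and 3.

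*Tubb5* (ENSMUSG00000001525, chromosome 17, 35833921 to 35838306) had 589.9, 620.4 and 599.7 CPM in controls 1, 2 and 3. In KO 1, 2 and 3 it had 667.6, 687.3 and 660.9 CPM, each above the highest control library. On the log2 scale the change was 0.16 (SE 0.038, edgeR QL adjusted p = 0.0255), a rise of 11.4% in mean CPM. It was the only tubulin gene tested whose log2 fold change was above 0. Without 1 library, *Tubb5* passed the threshold of the same test without KO 1 (adjusted p = 0.0372) and KO 3 (0.0379). It did not pass without controls 1, 2 and 3 (0.0875, 0.0675 and 0.0531) or KO 2 (0.142).

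*Tuba1b* (ENSMUSG00000023004, chromosome 15, 98931425 to 98934565) had the smallest p of the members. It had 716.1, 709.8 and 662.8 CPM in controls 1, 2 and 3, and 620.6, 615.2 and 583.0 CPM in KO 1, 2 and 3, without overlap. This gave a log2 fold change of -0.20 (SE 0.042, edgeR QL adjusted p = 0.0119), a fall of 12.9% in mean CPM. The call was lost in that test without control 2 (adjusted p = 0.0868), KO 2 (0.0538) and KO 3 (0.0512). Since these reads are partly shared, the counts of *Tuba1a*, *Tuba1b* and *Tuba1c* were also summed, a choice made after the values were seen. The sum was 2216 ± 67.6 CPM in control and 2050 ± 75 CPM in *Phf2* KO cells. The summed log2 fold change was -0.11 (SE 0.037, edgeR QL adjusted p = 0.0951), so the call on *Tuba1b* was not kept for the sum.

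The remaining members did not pass the threshold. *Tuba4a*, which encodes no terminal tyrosine, had 77.7, 74.6 and 63.2 CPM in controls 1, 2 and 3 and 64.8, 59.5 and 62.4 CPM in KO 1, 2 and 3. Its groups overlapped through control 3. KO over control, the log2 change was -0.21 (SE 0.071, edgeR QL adjusted p = 0.119), and the adjusted p was 0.00688 without control 3. *Tubb4b*, a broadly expressed isotype that is also found in cilia, had 92.9, 100.9 and 96.9 CPM in controls 1, 2 and 3 and 84.5, 93.1 and 83.8 CPM in KO 1, 2 and 3, with KO 2 above the lowest control library (log2 fold change -0.15, edgeR QL adjusted p = 0.111).

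*Tubb2a* and *Tubb2b*, β isotypes best known from neurons, did not overlap between groups but did not pass. *Tubb2a* had 283.2, 301.4 and 294.3 CPM in controls 1, 2 and 3 and 276.0, 279.0 and 266.9 CPM in KO 1, 2 and 3. *Tubb2b* had 260.9, 282.5 and 269.8 CPM in controls 1, 2 and 3 and 258.1, 259.9 and 260.2 CPM in KO 1, 2 and 3, so its KO libraries were within 3 CPM of each other. *Tuba1a* had 1189 ± 51.2 CPM in control and 1129 ± 41.4 CPM in *Phf2* KO cells, and *Tuba1c* had 330.3 ± 10.1 and 314.7 ± 18.9 CPM, both with overlap. The fold change on the log2 scale was -0.07 for *Tuba1a* (edgeR QL adjusted p = 0.358), -0.07 for *Tuba1c* (0.491), -0.10 for *Tubb2a* (0.223) and -0.06 for *Tubb2b* (0.474). The summed counts of *Tubb2a* and *Tubb2b*, neighbours on chromosome 13, gave -0.08 (adjusted p = 0.281).

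**Figure D2:**
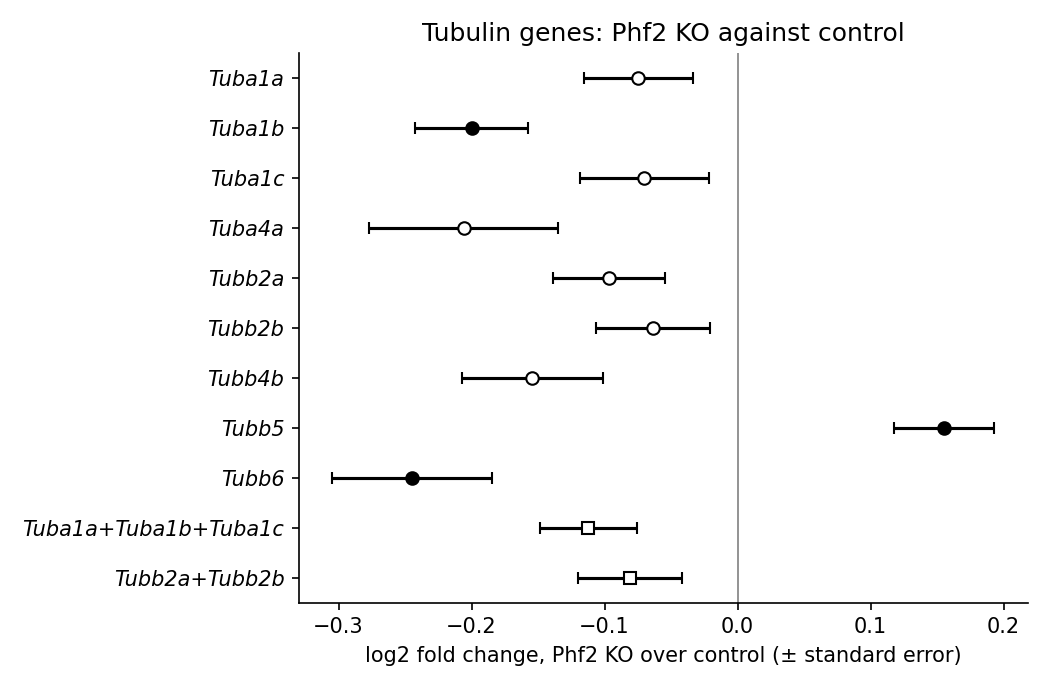
Log2 fold change of *Phf2* KO over control for the 9 tubulin genes tested (circles) and for summed near-identical copies (squares). Bars are the standard error derived from the F-test. Filled symbols have an adjusted p under 0.05 in the quasi-likelihood test. *Tubb5* alone lies above 0, and the sum of the *Tuba1* genes is not past the threshold.

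The study's methods name exactTest, another test of edgeR, which was run on the same genes. By exactTest 1 of the 9 tubulin genes passed, *Tubb6* (adjusted p = 0.0442), where 6.52% of all genes tested passed. The study itself reported fewer genes past its threshold than this run called, so its own calls on these genes may differ. *Tuba1b* had an adjusted p of 0.0525 and *Tubb5* of 0.146 by exactTest. With limma on TPM, at a pseudocount of 1 or of 0.1 before the log2, 0 of the 9 passed. In these fits only 158 and 178 of all 17310 genes tested passed. With the smaller pseudocount, limma's adjusted p was 0.0961 for *Tubb5*, 0.122 for *Tuba1b* and 0.163 for *Tubb6*. The direction of each of the 9 genes was the same in every alternative run.

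The mix of isotypes was compared as the share of each gene in the summed TPM of its family, which does not depend on the scaling between libraries. *Tubb5* made up 25.2%, 25.8% and 26.6% of β-tubulin TPM in controls 1, 2 and 3. It made up 29.8%, 30.4% and 30.3% in KO 1, 2 and 3, a mean difference of 4.26 percentage points. *Tubb6* made up 34.4%, 31.6% and 29.8% in controls 1, 2 and 3 and 29.0%, 27.8% and 27.8% in KO 1, 2 and 3, a mean difference of -3.74 percentage points. The groups did not overlap for these 2 isotypes, and they overlapped for the other 7 detected ones.

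The exact permutation test (two-sided) gave p = 0.1 for *Tubb5* and for *Tubb6*, the smallest p that 3 libraries against 3 allow, and an adjusted p of 0.3 over the 9 detected isotypes, so the design cannot bring a share past 0.05. The ratio of *Tubb5* to *Tubb6* TPM, chosen after the values were seen, was 0.735, 0.817 and 0.894 in controls 1, 2 and 3 and 1.03, 1.09 and 1.09 in KO 1, 2 and 3. Both genes had 0 stretches of read length in common with another gene, and neither overlaps another annotated gene.

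The shares of the other β isotypes differed by less than the spread between control libraries for *Tubb2a* (21.1% ± 0.805 in control and 20.9% ± 0.091 in *Phf2* KO cells) and for *Tubb2b* (14.2% ± 0.534 and 14.3% ± 0.335). The share of *Tubb4b* was 6.91% ± 0.305 in control and 6.49% ± 0.296 in *Phf2* KO cells.

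Of α-tubulin TPM, *Tuba1a* made up 52.7% ± 1.35 in control and 54.1% ± 0.865 in *Phf2* KO cells. *Tuba1b* made up 31.9% ± 1.07 and 30.3% ± 0.665, *Tuba1c* 13.3% ± 0.095 and 13.7% ± 0.292, and *Tuba4a* 2.08% ± 0.199 and 1.92% ± 0.155. The groups overlapped for each of these 4 shares, and the lowest p was 0.2 (exact permutation test). Within pairs of libraries with the same replicate number, the share of *Tuba1b* was lower in KO than in control in 3 of 3 pairs (by -2.06, -1.73 and -1.16 percentage points), and those of *Tuba1a* and *Tuba1c* were higher in 3 of 3. The *Tubb4b* share was lower in 3 of 3 pairs, as were the β total and the α to β ratio described next. With 3 pairs, the exact sign-flip permutation test gave p = 0.25 for each, the smallest it allows. This comparison within pairs was added after the values were seen.

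**Figure D3:**
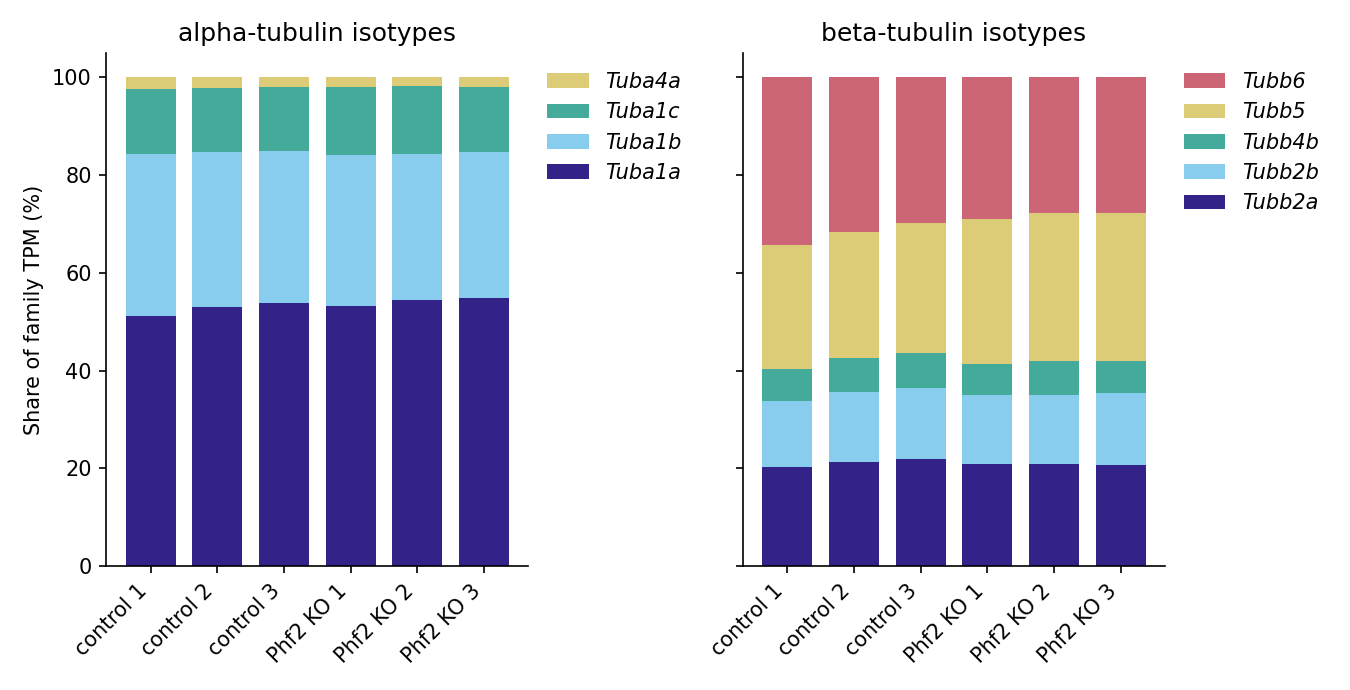
Share of each detected isotype in the summed TPM of the α-tubulin members (left) and of the β-tubulin members (right), in percent, for each library. The *Tubb5* band widens from 25.2% to 26.6% in control libraries to 29.8% to 30.4% in *Phf2* KO libraries, and the *Tubb6* band narrows.

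The summed α-tubulin TPM was 2676, 2804 and 2672 in controls 1, 2 and 3 and 2510, 2615 and 2488 in KO 1, 2 and 3. The groups did not overlap, and the *Phf2* KO mean was 0.934 of the control mean (p = 0.1, exact permutation test). The summed β-tubulin TPM was 1907 ± 51.5 in control and 1839 ± 22.2 in *Phf2* KO cells, and KO 2 exceeded control 3 (p = 0.2, exact permutation test). The ratio of α to β TPM was 1.43 ± 0.023 in control and 1.38 ± 0.027 in *Phf2* KO cells (p = 0.2, exact permutation test).

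Of 10 other tubulin genes, 6 were tested, with a median log2 fold change of -0.07. By edgeR QL 1 was lower past the threshold and 0 were higher (3.26% and 3.22% over all genes), and 2 had an unadjusted p under 0.05 (19.4% over all genes). The calls were the same in number by exactTest and DESeq2, and 0 passed by limma-voom. *Tuba3a*, *Tuba3b*, *Tubal3* and *Tubb1* did not pass the filter on low counts. *Tubb3* (chromosome 8, 123411424 to 123422015), the β isotype used as a neuronal marker, had 7.86, 9.72 and 6.39 CPM in controls 1, 2 and 3. It had 5.71, 5.43 and 4.45 CPM in KO 1, 2 and 3, all below the control libraries. *Tubb3* and *Stmn2* are on the list of 5 neuron markers, and the other 3 (*Rbfox3*, *Snap25* and *Syp*) summed to at most 0.48 CPM in any library. On the log2 scale the change was -0.62 (SE 0.17, edgeR QL adjusted p = 0.0445). The call was kept in 1 of the 6 fits without 1 library (adjusted p = 0.0198 without control 3). In the other 5 it was 0.103 and 0.244 without controls 1 and 2, and 0.0603, 0.108 and 0.185 without KO 1, 2 and 3. *Tubg1*, the γ-tubulin of the nucleating ring complex, had 32.1 ± 1.71 CPM in control and 30.04 ± 2.84 CPM in *Phf2* KO cells.

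Genes that fold tubulin or control its message did not pass the threshold. Of 22 genes for the CCT chaperonin, prefoldin, the tubulin cofactors and TTC5, 0 passed by edgeR QL, by exactTest, by DESeq2 or by limma-voom. By edgeR QL, 2 of the 22 had an unadjusted p under 0.05. Over all genes tested, edgeR QL called 6.48%, and 19.4% had an unadjusted p under 0.05. The median log2 fold change was -0.02. *Ttc5*, which acts in the decay of tubulin mRNA, had 32.5 ± 2.00 CPM in control and 32.9 ± 1.60 CPM in *Phf2* KO cells.

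Of 23 enzymes that modify tubulin, 19 were tested, 1 was higher past the threshold and 0 were lower, beside 6.48% called over all genes. The median log2 fold change was -0.08, and 6 had an unadjusted p under 0.05 (19.4% over all genes). The same counts of calls came from exactTest, DESeq2 and limma-voom. The higher one was *Ttll5* (chromosome 12, 85824659 to 86061893), a polyglutamylase that adds glutamate chains to tubulin tails, with 45.3, 54.1 and 52.8 CPM in controls 1, 2 and 3 and 60.6, 63.2 and 60.3 CPM in KO 1, 2 and 3. This gave a log2 fold change of 0.27 (SE 0.066, edgeR QL adjusted p = 0.0232), and it was 0.79 in the limma fit of log2(TPM + 1) without passing (adjusted p = 0.312). The call was lost without control 1 (0.0779) and KO 2 and 3 (0.108 and 0.0707). *Ttl*, the ligase that adds the terminal tyrosine back, had 40.7 ± 1.79 CPM in control and 45.3 ± 1.43 CPM in *Phf2* KO cells (edgeR QL adjusted p = 0.15).

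Of 46 genes listed as microtubule-binding proteins and motors, 43 were tested. Past the threshold 5 were lower and 0 were higher (3.26% and 3.22% over all genes). The list was chosen with earlier results of these data known. Its median log2 fold change was -0.04, and 10 had an unadjusted p under 0.05 (19.4% over all genes). The same 5 genes were called by exactTest, DESeq2 and limma-voom. The 5 are *Obsl1*, *Trim55*, *Trim54*, *Trim63* and *Stmn2*, of which *Stmn2* falls outside the rule for naming genes and was named after its values were seen. *Obsl1*, obscurin-like 1, a cytoskeletal adaptor of muscle, had 168.3, 161.2 and 153.7 CPM in controls 1, 2 and 3. It had 89.0, 105.9 and 110.8 CPM in KO 1, 2 and 3, a log2 fold change of -0.66 (SE 0.075, edgeR QL adjusted p = 6.86e-04).

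*Trim55*, *Trim54* and *Trim63* encode the MuRF proteins, ubiquitin ligases of striated muscle that associate with microtubules and the sarcomere. *Trim55* had 43.5, 43.7 and 37.6 CPM in controls 1, 2 and 3 and 28.6, 28.0 and 30.4 CPM in KO 1, 2 and 3 (log2 fold change -0.52, SE 0.073, edgeR QL adjusted p = 7.67e-04). *Trim54* had a log2 fold change of -0.50 (adjusted p = 0.0209) and *Trim63* of -0.38 (adjusted p = 0.0277) in the same fit. For all 3 genes the highest KO library lay below the lowest control library. These genes are muscle genes, and the summed myotube markers were also lower in each KO library (6961 to 7481 CPM) than in any control library (8899 to 10481 CPM), whose part in the result was not tested. *Obsl1* and *Trim55* kept their calls in each of the 6 fits without 1 library.

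*Trim54* kept its call in 2 of these 6 fits, without control 3 and KO 1, and had an adjusted p of 0.0744, 0.0584, 0.0723 and 0.0745 without controls 1 and 2 and KO 2 and 3. *Trim63* kept it in 1, without KO 3, and had 0.0777, 0.0967, 0.0593, 0.0966 and 0.0905 in the others. *Stmn2*, a stathmin that binds free tubulin dimers, fell from 36.8 ± 1.62 CPM to 29.4 ± 1.18 CPM, a log2 fold change of -0.32 (edgeR QL adjusted p = 0.00977, 0.0527 without KO 3). More general microtubule proteins are given as examples that did not pass. *Map4*, a microtubule-associated protein of muscle and other cells, had 531 ± 21.9 CPM in control and 522 ± 10.2 CPM in *Phf2* KO cells, and *Kif5b*, a kinesin heavy chain, had 385 ± 18.9 CPM and 366.0 ± 24.3 CPM.

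Of 25 genes for nucleation and severing of microtubules, 0 passed by edgeR QL, exactTest or limma-voom. The median log2 fold change was 0.06, and 4 had an unadjusted p under 0.05 by edgeR QL. Over all genes tested, edgeR QL called 6.48%, and 19.4% had an unadjusted p under 0.05. DESeq2 called 2 of the 25, *Camsap2* higher and *Akap6* lower, where it called 1509 of all 17310 genes tested. *Camsap2*, which binds microtubule minus ends, had 73.8, 74.5 and 72.7 CPM in controls 1, 2 and 3 and 78.3, 83.0 and 87.6 CPM in KO 1, 2 and 3, without overlap (edgeR QL adjusted p = 0.0649). *Akap6*, an anchor of nucleating material at the nuclear envelope of muscle cells, had 80.8, 89.1 and 70.0 CPM in controls 1, 2 and 3 and 62.6, 61.9 and 73.7 CPM in KO 1, 2 and 3, with overlap (edgeR QL adjusted p = 0.176). Of 22 genes of the mitotic spindle and of proliferation, 0 passed by edgeR QL, exactTest, DESeq2 or limma-voom and 1 had an unadjusted p under 0.05 by edgeR QL, with a median log2 fold change of -0.08. Over the 6 lists together, 7 of 137 genes tested passed, 6 lower and 1 higher, a share below the 6.48% of all genes.

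**Figure D4:**
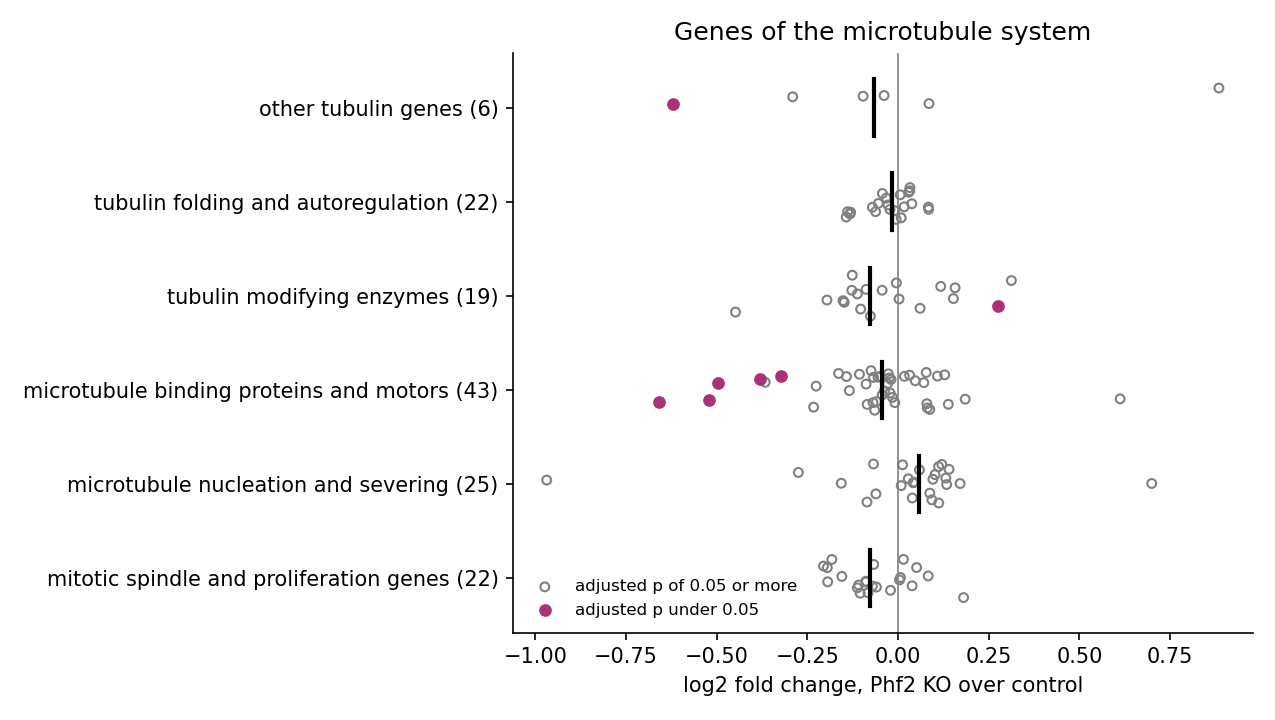
Log2 fold change of *Phf2* KO over control for each gene tested in 6 lists of the microtubule system, with the number tested in brackets. Filled points have an adjusted p under 0.05 in the quasi-likelihood test, open points do not, and the black bar is the list's median. The filled points are 5 genes of the list of binding proteins and motors, *Tubb3* and *Ttll5*.

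The genes whose levels followed *Tuba1b* most closely over the 6 libraries were *Mapk12*, *Ciao2b* and *Isyna1*, with a Pearson r of log2 CPM of 0.995, 0.995 and 0.994. They were taken from the 10914 genes whose mean reached 5 CPM, of which 435 had an r above 0.9, and the r is a description of 6 libraries that fall into 2 groups. Their own adjusted p in the quasi-likelihood fit was 0.187, 0.0779 and 0.116.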

How the data were processed

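Per the labels, HISAT2 and mm10 were used for alignment. By the study's methods, the authors then derived gene-level values with StringTie. Versions and annotation are not given in the sources used here. What the authors deposited as a matrix are estimated counts, whole numbers with no scaling. The tables deposited for each library give TPM, which is a per-library signal set by the authors, and only rows of reference genes were used. Coverage, also listed by the authors, was not needed.

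R 4.3.3 and edgeR 4.0.16 served for the counts: filterByExpr (minimum count 10), TMM, a robust quasi-likelihood test, Benjamini-Hochberg adjustment and a threshold of 0.05. exactTest, DESeq2 1.42.0 and limma 3.58.1 (also after voom) were alternatives. Shares and totals were compared by exact permutation tests over 6 libraries. Coding sequences were aligned with biopython 1.88, and coding bases of the α isotypes are not reported here. The test was checked on simulated data, where it recovered 80% of 2-fold and 31% of 1.5-fold changes, with 4 false calls among 115. Changes as small as those of the tubulin genes were not simulated.

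The members, gene lists and markers were chosen with earlier results of these data known. Named by rule were all members, *Phf2*, at most 4 genes past the threshold of each list, those with the largest change, and the 3 genes most like the member with the smallest p. Other genes given as examples were named after their values were seen. Deviations from the group mean correlated from 0.158 to 0.25 between libraries with the same replicate number, against at most -0.0131 for other pairs. Because the deviations of a group sum to 0, positive values in some pairs force negative ones in others. Whether the numbers pair the libraries is therefore not settled, and the labels do not say. The block was an alternative, because the test named in the study has none.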

Additional observations from a re-analysis of the deposited data

How the results depend on the processing

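Of the tubulin genes, 1 higher and 2 lower past the threshold were also counted with DESeq2, DESeq2's size factors, upper-quartile scaling, scaling by library size only, without a filter, with a filter of 1 CPM in 3 libraries, with counts divided by 4 and counts summed per symbol. Adding the replicate number as a block gave 1 higher and 2 lower as well and changed no call on a member (adjusted p = 0.00395 for *Tuba1b*, 0.0165 for *Tubb5* and 0.0032 for *Tubb6*). The counts were 0 higher and 1 lower with exactTest, 1 higher and 1 lower with limma-voom, 0 and 0 when limma was run on log2(TPM + 1) or log2(TPM + 0.1), 0 and 0 at an adjusted p under 0.01, and 1 and 1 with the near-identical copies summed, which was chosen after seeing the data. Without 1 library, 0 to 1 were higher and 0 to 3 lower. Genes of the 6 microtubule lists past the threshold were 7, against 9 with DESeq2 and 6 with limma-voom. They were 1 in both limma fits of TPM, 3 at an adjusted p under 0.01 and 3 to 7 without 1 library. Over all genes, 1122 passed, against 1509 with DESeq2, 1316 with the replicate block, 1286 with counts divided by 4 and 1264 with the 1 CPM filter. Fewer passed in other settings, among them 158 and 178 in the limma fits of TPM and 472 at an adjusted p under 0.01. Without control replicate 2 there were 468, and without *Phf2* KO replicates 2 and 3 there were 577 and 613. The cause of these losses was not tested, but fits without 1 library have fewer samples.

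The share of *Tubb2a* turned from -0.217 to 0.145 percentage points without control replicate 3 (from -0.65 to 0.145 without 1 library), and that of *Tubb2b* turned from 0.12 to -0.238 with CPM in place of TPM, to -0.181 without control replicate 1 and to -0.0732 without *Phf2* KO replicate 3 (from -0.181 to 0.326 without 1 library). With the replicate block, as differences within pairs, *Tubb5* and *Tubb6* shares differed in the same direction in 3 of 3 pairs (4.26 and -3.74 percentage points on average, exact sign-flip permutation p = 0.25). The shares of *Tubb5* and *Tubb6*, the α and β totals and their ratio kept their direction in the alternatives run. The alternative with assembled loci was not run, because these loci carry no gene symbol. Replicates number 3 a group, which limits exact tests to p = 0.1.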
